A study of Mus musculus with 2 samples.

Results

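The matrix metalloproteinases (MMP), the ADAM and ADAMTS proteinases, the ADAMTS-like proteins (ADAMTSL) and their tissue inhibitors (TIMP) were examined in cultured fibroblastic reticular cells (FRCs), a fibroblast type that forms the scaffold of the lymph node. Members were all genes whose symbol in the platform's probe annotation begins with Mmp, Adam, Adamts, Adamtsl or Timp and a digit, taken from probe sets that list 1 gene only. This gave 83 of 19751 named genes, made up of 22 MMP, 34 ADAM, 18 ADAMTS, 5 ADAMTSL and 4 TIMP genes on 108 probe sets. Mmp15 and Adamts2 were not analysed here. The series holds 1 group of 2 arrays, named replicate 1 and replicate 2 after their titles. Both came from untreated C57BL6/J mice aged 4 to 6 weeks, with lymph node stromal cells expanded in αMEM and 10% fetal calf serum over 7 to 10 days. The labels call the FRCs purified but do not describe the purification, and they leave unstated whether each replicate had its own animal or culture. The spread between the arrays may therefore be partly technical.

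These families cut and remodel the proteins around a cell. MMPs are secreted or membrane-bound zinc proteinases that are made as inactive precursors and degrade collagens and other matrix proteins. ADAMs are membrane-anchored and shed growth factors, cytokines and adhesion molecules from the cell surface, although a good part of the mouse family serves sperm and has little known role elsewhere. ADAMTS proteinases are secreted, carry thrombospondin repeats and cut proteoglycans, procollagens and other matrix proteins, while ADAMTSL proteins share the repeats but lack the proteinase domain. TIMPs block the active site of MMPs and, in part, of ADAMs and ADAMTS proteinases.

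Values are log2 intensities on replicate 1 and replicate 2, in that order, and mean ± SD is over n = 2 arrays. As a background limit, the 95th percentile over 1035 olfactory receptor probe sets was taken on each array (7.15 and 7.17), since fibroblasts are not known to use these sensory genes. Being above the limit means passing it on both arrays. A stricter limit of 8.08 and 8.18 came from 36 probe sets of tissue-restricted genes, such as those of liver or retina. Probes differ in how strongly they bind, so levels of family members were not ranked against each other, and the olfactory receptor probe sets serve only as a group that shows background. With 1 group and no second condition there was no comparison to test, and no p-value is given.

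The stromal label was checked first. All 8 FRC markers, among them Pdpn (12.60 and 12.73) and Pdgfra (11.84 and 11.94), lay above both limits. For macrophages 3 of 8 markers passed the first limit and 1, Cd68, the stricter one, with Ptprc, the gene of the pan-leukocyte antigen CD45, at 6.41 and 6.47. Of the 6 neutrophil, 4 B cell and 4 T cell markers measured, 2 in each list passed the first limit and 0 the stricter one. For epithelial cells 3 of 6 passed the first and 1 the stricter limit, and for endothelial cells 3 of 7 and 0. As a gauge of these counts, 15 of 36 tissue-restricted genes passed the first limit as well.

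Of the 83 members, 43 (51.8%) exceeded the olfactory receptor limit, against 67.3% of all named genes. A further 2, Adamts13 and Adamtsl3, did so on a single array, and 38 did not on either. The stricter limit was passed by 31 members (37.3%), against 49.9% of all genes. On both arrays 22 members (26.5%) exceeded every single olfactory receptor probe set, of which the brightest stood at 9.51 on replicate 1 and 9.46 on replicate 2, against 31.4% of all genes. By family, 13 of 22 MMP, 11 of 34 ADAM, 12 of 18 ADAMTS, 4 of 5 ADAMTSL and 3 of 4 TIMP genes passed the first limit. The testis and epididymis ADAMs account for 20 of the 38 members below it. Without them and Adam34l, a choice made with the values known, 42 of 61 members (68.9%) passed the first limit and 31 (50.8%) the stricter one, shares close to the 67.3% and 49.9% of all genes. The plot of levels by gene shows MMP, ADAM, ADAMTS and TIMP genes on both sides of it, and the fifth ADAMTSL gene, Adamtsl3, crossing it between the arrays.

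**Figure D1:**
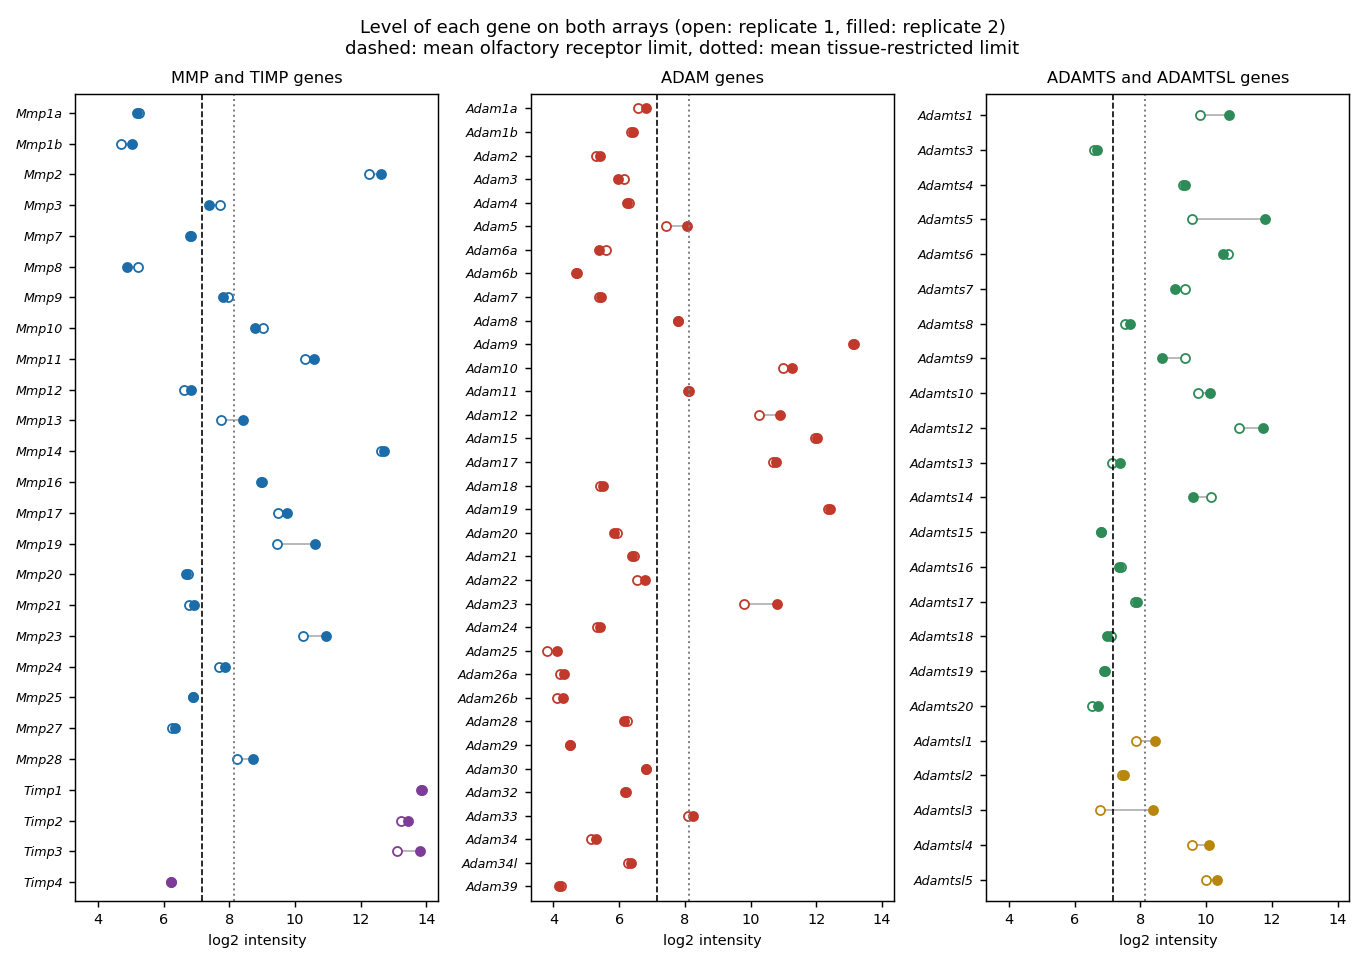
Log2 intensity of each of the 83 family members (x axis) on replicate 1 (open circles) and replicate 2 (filled circles), in 3 panels by family, with a line joining the arrays. The dashed line is the mean olfactory receptor limit of 7.16 and the dotted line the mean tissue-restricted limit; Adamts5 (9.58 and 11.81) and Adamtsl3 (6.76 and 8.38) show the widest gaps between arrays.

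Of the 4 TIMP genes, 3 lay above both limits and 1 below. Timp1, which inhibits most MMPs, was at 13.85 and 13.86 (13.85 ± 0.01). Timp2, which also helps to activate the MMP2 precursor at the cell surface, was at 13.23 and 13.43 (13.33 ± 0.14). Timp3, the inhibitor that binds to the matrix and also blocks ADAM17 and the aggrecan-cleaving ADAMTS proteinases, was at 13.11 and 13.81 (13.46 ± 0.50). All 3 exceeded every olfactory receptor probe set on both arrays. Timp4, best known from heart and fat tissue, was at 6.22 and 6.23 and lay below the limit, at a level above that of 76.6% of the olfactory receptor probe sets on replicate 1. Timp1 differed 1.01-fold between the arrays, while Timp3 was 1.63-fold higher on replicate 2.

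Among MMPs, the gelatinase Mmp2 (12.26 and 12.61, 12.44 ± 0.25), which cuts denatured and basement membrane collagen, and the membrane-type proteinase Mmp14 (12.63 and 12.71, 12.67 ± 0.06), which cuts fibrillar collagen and activates the MMP2 precursor together with TIMP2, exceeded every olfactory receptor probe set. The other gelatinase, Mmp9, a gene prominent in neutrophils and macrophages, was at 7.97 and 7.81, above the first limit and below the stricter one on both arrays. The genes for MMP2, MMP14 and TIMP2, the proteins of the best-described activation complex at the cell surface, therefore all passed both limits on both arrays. Of the 5 membrane-type genes measured, 4 passed the limit. Besides Mmp14 these were Mmp16 (8.97 and 8.99), Mmp17 (9.48 and 9.75), whose product is held by a lipid anchor, and Mmp24 (7.68 and 7.87), which did not pass the stricter limit. Mmp25, the lipid-anchored enzyme known from leukocytes, lay below the limit at 6.91 and 6.90.

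Several less studied MMPs gave signal. Mmp11, a stromelysin that furin activates inside the cell and that is known from tumour stroma, was at 10.31 and 10.57 (10.44 ± 0.19). Mmp23, an unusual enzyme released from a membrane anchor by its own processing, was at 10.24 and 10.95 (10.60 ± 0.50), and Mmp28 (epilysin) at 8.24 and 8.73. Mmp19, a proteinase of basement membrane and other matrix proteins, was at 9.45 and 10.60 (10.03 ± 0.81), the largest difference between arrays among the MMPs, 2.21-fold. Mmp21 (6.77 and 6.93) was below the limit. The remaining MMPs sit in 1 gene cluster, which is described next.

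Of the 10 MMP genes that follow each other without another protein-coding gene between them on chromosome 9, 3 lay above the limit on both arrays and 7 on neither. In the order of the RefSeq gene table these are Mmp13, Mmp12, Mmp1b, Mmp3, Mmp1a, Mmp10, Mmp8, Mmp27, Mmp20 and Mmp7. The 3 genes above it were the collagenase Mmp13 (7.76 and 8.41, 8.09 ± 0.47) and the stromelysins Mmp3 (7.72 and 7.39, 7.55 ± 0.23) and Mmp10 (9.01 and 8.79, 8.90 ± 0.16), which cut proteoglycans and activate other MMPs. Only Mmp10 of these passed the stricter limit on both arrays, and Mmp13 did so on replicate 2. Each has neighbours in the cluster that were below the limit. The collagenases Mmp1a (5.26 and 5.19), Mmp1b (4.69 and 5.03) and Mmp8 (5.23 and 4.89), the last a neutrophil enzyme, lay below the median olfactory receptor probe set on both arrays, which was 5.37 and 5.39. The macrophage elastase Mmp12 (6.61 and 6.84), the epithelial matrilysin Mmp7 (6.82 and 6.83), the enamel proteinase Mmp20 (6.75 and 6.68) and Mmp27 (6.24 and 6.34) lay between that median and the limit.

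The promoters of most genes in this cluster share a sequence feature, which was found in genes above and below the limit. The motif TGANTCA, the binding sequence of the AP-1 transcription factors (Fos and Jun proteins), was searched in the RefSeq promoter windows of build GRCm38.p6, each from 250 bases before to 50 after an annotated start. It reads the same on both strands and was found in 7.81% of the 32851 windows of all genes. All 10 cluster genes had a window and 8 held the motif, its first base 35 to 95 bases before the start. This is a count of genes, whereas the 7.81% is of windows. Mmp12 and Mmp7 each had a further window without the motif. Of the 8 genes with it, 3 were above the limit and 5 below, and Mmp8 and Mmp27, which did not hold it, were below. Among the 42 members outside the cluster with a window, 5 held it. A match of letters is a description of the window and not evidence of binding, and the cluster was singled out after its values were seen. The windows of Mmp3 (chr9:7445572-7445871, plus strand), Mmp10 (chr9:7502092-7502391, plus strand) and Mmp13 (chr9:7272264-7272563, plus strand) are printed because these genes gave signal. Those of Mmp1a (chr9:7463891-7464190, plus strand), which holds the motif and gave none, and Mmp8 (chr9:7558179-7558478, plus strand), which lacks it, are printed for contrast. Each runs 5′ to 3′ along the gene, and capitals mark the motif, whose first base lies 46 bases before the start in Mmp3, 63 in Mmp10, 35 in Mmp13 and 73 in Mmp1a.
Mmp3: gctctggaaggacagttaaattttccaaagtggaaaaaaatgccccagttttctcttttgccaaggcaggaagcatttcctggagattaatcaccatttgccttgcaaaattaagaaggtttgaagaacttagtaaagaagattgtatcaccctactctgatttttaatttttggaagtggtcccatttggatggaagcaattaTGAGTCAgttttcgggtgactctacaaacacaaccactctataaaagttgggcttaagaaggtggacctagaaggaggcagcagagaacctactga
Mmp10: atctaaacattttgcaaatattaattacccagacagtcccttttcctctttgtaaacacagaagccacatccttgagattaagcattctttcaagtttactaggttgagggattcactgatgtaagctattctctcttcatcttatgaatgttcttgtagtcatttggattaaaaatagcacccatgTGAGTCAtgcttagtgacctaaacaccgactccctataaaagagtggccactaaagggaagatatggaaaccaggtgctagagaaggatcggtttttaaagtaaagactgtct
Mmp13: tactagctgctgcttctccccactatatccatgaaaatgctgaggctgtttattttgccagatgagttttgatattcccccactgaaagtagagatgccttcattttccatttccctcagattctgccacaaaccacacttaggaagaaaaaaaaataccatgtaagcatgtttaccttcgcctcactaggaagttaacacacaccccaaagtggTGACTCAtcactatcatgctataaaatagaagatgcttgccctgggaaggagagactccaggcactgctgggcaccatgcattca
Mmp1a: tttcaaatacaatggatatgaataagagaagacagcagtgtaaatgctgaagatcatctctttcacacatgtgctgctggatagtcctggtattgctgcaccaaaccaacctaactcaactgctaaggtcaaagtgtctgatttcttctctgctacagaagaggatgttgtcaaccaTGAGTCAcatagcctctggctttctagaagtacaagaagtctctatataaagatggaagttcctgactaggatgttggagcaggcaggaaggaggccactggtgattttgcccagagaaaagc
Mmp8: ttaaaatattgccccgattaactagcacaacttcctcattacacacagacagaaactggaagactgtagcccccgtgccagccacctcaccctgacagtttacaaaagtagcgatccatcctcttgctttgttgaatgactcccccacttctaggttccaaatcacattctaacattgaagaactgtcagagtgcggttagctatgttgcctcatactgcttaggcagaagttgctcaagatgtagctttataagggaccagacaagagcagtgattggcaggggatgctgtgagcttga

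The ADAM genes are taken by where they are known to act. Of the 9 somatic proteinases, 8 passed the limit and 7 the stricter one. Adam10 (10.98 and 11.25, 11.11 ± 0.20), which cuts Notch receptors and cadherins, and Adam17 (10.69 and 10.79, 10.74 ± 0.07), the main sheddase of TNF and of several EGF receptor ligands, exceeded every olfactory receptor probe set. So did Adam9 (13.15 and 13.11, 13.13 ± 0.03), Adam15 (11.96 and 12.04), Adam19 (12.36 and 12.43) and Adam12 (10.27 and 10.91), the last 1.56-fold higher on replicate 2. Adam33 (8.10 and 8.25), a mesenchymal gene studied in airway disease, passed both limits. Adam8 (7.79 and 7.78), prominent in myeloid cells, passed only the first, and Adam28 (6.23 and 6.15), a lymphocyte and epithelial gene, passed neither.

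Of the 3 ADAMs that lack proteinase activity and are known from neurons, 2 gave signal. Adam23, an adhesion protein that binds the secreted factor LGI1, was at 9.80 and 10.81 (10.31 ± 0.72), above every olfactory receptor probe set on both arrays and 2.02-fold higher on replicate 2. Adam11 was at 8.13 and 8.09, above the first limit on both arrays and above the stricter one on replicate 1. Adam22 (6.55 and 6.80), which binds the same LGI1, lay below the limit.

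The testis and epididymis ADAMs lay in the range of the olfactory receptors. Of 21 measured, 1 lay above the limit (4.76%), against 46 of the 1035 olfactory receptor probe sets (4.44%), and 0 passed the stricter limit. Their median level was 5.42 on replicate 1 and 5.43 on replicate 2, against 5.37 and 5.39 for olfactory receptors. The 21 levels spanned 3.82 to 7.44 on the first array and 4.10 to 8.06 on the second. Among them were Adam2 (5.30 and 5.42) and Adam3 (6.14 and 5.98), which serve the binding of sperm and egg, and Adam25 (3.82 and 4.10). The gene above the limit was Adam5, at 7.44 and 8.06 (7.75 ± 0.44) and 1.54-fold higher on replicate 2. Its genomic neighbours on either side in the RefSeq order, Adam3 and Adam32 (6.22 and 6.19), were below the limit. Adam34l, which was placed in no list, was also below it (6.27 and 6.36). The plot against olfactory receptors shows the testis genes within the receptors' distribution and the other ADAMs mostly to its right.

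**Figure D2:**
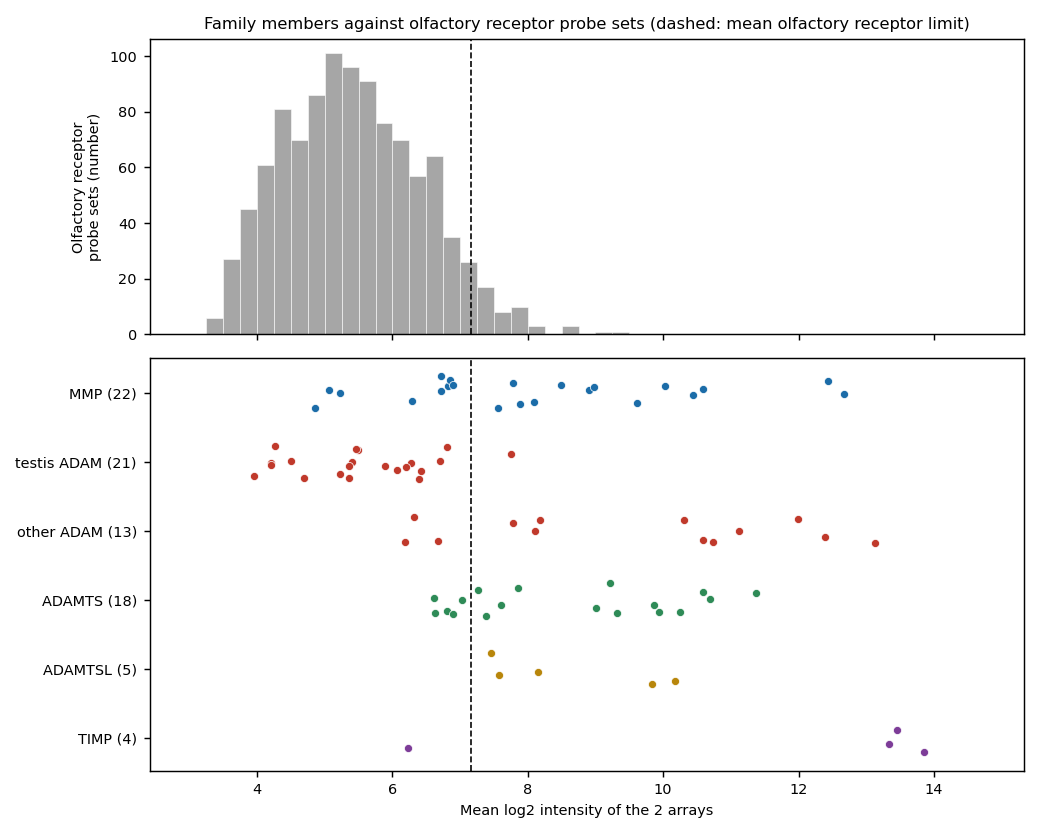
Upper panel, number of olfactory receptor probe sets by mean log2 intensity of the 2 arrays; lower panel, mean log2 intensity of each family member by class, with the number of genes in brackets and points spread vertically at random. "Other ADAM" holds the somatic and neural genes and Adam34l, and the dashed line is the mean limit of 7.16, which 1 of 21 testis ADAM genes, Adam5, exceeds.

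Among the 7 ADAMTS genes for proteinases that cut aggrecan, versican and related proteoglycans, 5 passed the limit and 4 the stricter one, and they differed between the arrays in opposite directions. Adamts5, the main aggrecan-cleaving enzyme of mouse cartilage, was at 9.58 and 11.81 (10.69 ± 1.58), 4.70-fold higher on replicate 2. This was the largest difference of any member and ranked at 19 of 13577 genes in that direction. Adamts1, the next protein-coding gene beside Adamts5 in the RefSeq order, was at 9.82 and 10.69 (10.25 ± 0.61), 1.82-fold higher on the same array. Adamts9 went the other way, at 9.37 and 8.65 (9.01 ± 0.51), 1.64-fold higher on replicate 1, and all 6 of its probe sets were lower on replicate 2, with log2 differences from -0.95 to -0.36. Adamts4 was nearly level (9.28 and 9.36), and Adamts8 (7.54 and 7.67) passed only the first limit. Adamts15 (6.80 and 6.81) and Adamts20 (6.53 and 6.71) were below it.

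The other ADAMTS genes are taken by their known substrates. Of the procollagen N-proteinases, which trim fibrillar procollagens, Adamts14 was at 10.16 and 9.59 (9.87 ± 0.40), 1.48-fold higher on replicate 1. Adamts3 averaged 6.59 and 6.68, below the limit, but 6 of its 16 probe sets passed it on both arrays and their levels ran from 5.03 to 8.44 on replicate 1, so the gene's call depends on the probe set. Both genes for enzymes that cut the cartilage protein COMP passed, Adamts12 at 11.00 and 11.74 (11.37 ± 0.53) and Adamts7 at 9.36 and 9.06, the first higher and the second lower on replicate 2. Both genes linked to fibrillin microfibrils passed as well, Adamts6 at 10.66 and 10.52 and Adamts10 at 9.77 and 10.11. Adamts13, the von Willebrand factor proteinase made mainly by hepatic stellate cells, stood at the limit (7.15 and 7.37) and passed on 1 array. Of the genes with less known substrates, Adamts16 (7.42 and 7.35) and Adamts17 (7.83 and 7.90) passed the first limit only, and Adamts18 (7.09 and 6.97) and Adamts19 (6.91 and 6.89) did not. For Adamts17, 3 of 5 probe sets passed, with levels from 6.05 to 9.81 on replicate 1.

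**Figure D3:**
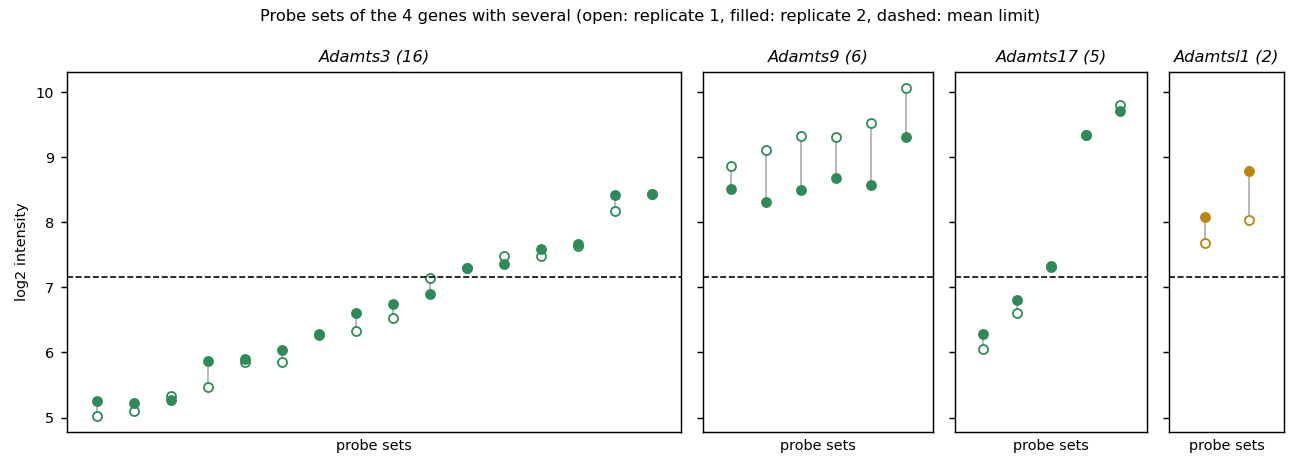
Log2 intensity (y axis) of each probe set of the 4 members measured by several, on replicate 1 (open circles) and replicate 2 (filled circles), ordered by mean within a gene, with the number of probe sets in brackets. The dashed line is the mean limit of 7.16; the 16 probe sets of Adamts3 lie on both sides of it, and all 6 of Adamts9 are lower on replicate 2.

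All 5 ADAMTSL genes, whose products bind matrix and in several cases fibrillin, were higher on replicate 2 by any amount, as were 51.2% of all genes, with a difference of only 0.05 for Adamtsl2. Adamtsl4, a gene whose mutation displaces the eye lens, was at 9.57 and 10.10 (9.83 ± 0.37) and Adamtsl5 at 10.01 and 10.34 (10.17 ± 0.23), and both exceeded every olfactory receptor probe set. Adamtsl1 was at 7.86 and 8.44 (8.15 ± 0.41), with both probe sets higher on replicate 2, and Adamtsl2 at 7.43 and 7.49. Adamtsl3 was at 6.76 and 8.38 (7.57 ± 1.15), below the limit on replicate 1 and above both limits on replicate 2. With replicate 1 set to its limit, it was at least 2.35-fold higher on replicate 2.

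The arrays were then compared over the 45 members whose mean level exceeded the mean limit of 7.16, as were 13577 of all genes. Each difference rests on 1 array a side and has no replicate check. Of the 45 members, 34 (75.6%) were higher on replicate 2 by any amount, against 51.2% of all genes, and the median difference, replicate 2 minus replicate 1, was 0.19 on the log2 scale against 0.0046 for all genes. With no filter on level, the median over all 83 members was 0.09, against 0.0059 for all genes. At least 2-fold higher on replicate 2 were 4 members (8.89%), Adamts5, Adamtsl3, Mmp19 and Adam23, against 1.05% of all genes. The same 4 are 4.82% of all 83 members, against 0.785% of all genes with no filter. Adamtsl3, and Adamts13 among the 34, lay below the limit on replicate 1 and entered the 45 only through replicate 2. After quantile normalisation of the 2 arrays, Adam23 was at a difference of 0.99 and no longer reached 2-fold. At least 2-fold higher on replicate 1 were 0 members, against 0.368% of all genes. At 1.5-fold, 11 members (24.4%) were higher on replicate 2, against 2.87% of all genes, and 1, Adamts9, was higher on replicate 1, against 1.91%. The plot of differences by gene shows 34 members on the side of replicate 2 and 11 on that of replicate 1.

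**Figure D4:**
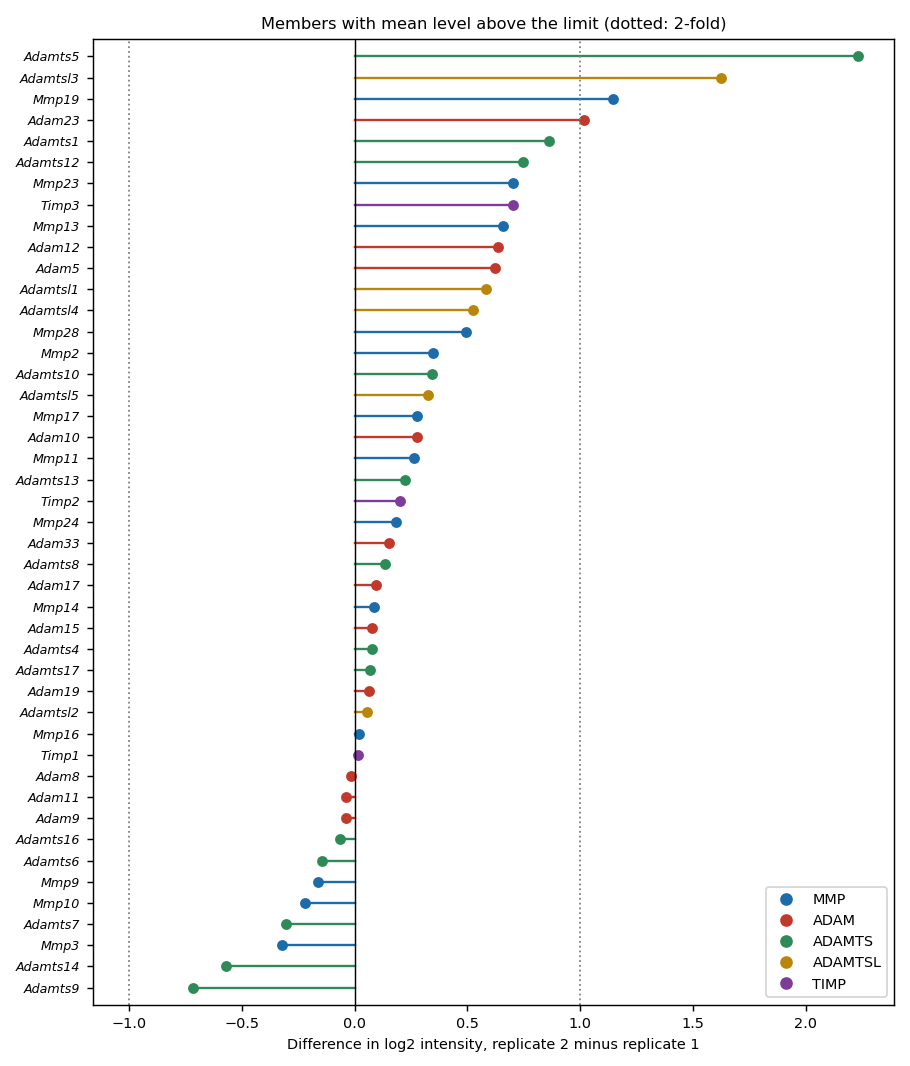
Difference in log2 intensity, replicate 2 minus replicate 1 (x axis), of the 45 members with mean level above the limit, coloured by family and ordered by difference; dotted lines mark 2-fold. Adamts5 stands at 2.23 and Adamtsl3 at 1.62, and Adamts9 is the lowest at -0.72.

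The families are given separately as a description, with no test between them. The median difference was 0.26 over 13 MMP genes, 0.09 over 11 ADAM genes, 0.08 over 13 ADAMTS genes, 0.52 over 5 ADAMTSL genes and 0.20 over 3 TIMP genes. The somatic ADAM proteinases were close between the arrays, with a median of 0.09 over 8 genes and folds from 1.01 for Adam8 to 1.56 for Adam12. Adam9, Adam15, Adam17 and Adam19 differed by 1.03-fold to 1.07-fold. The ADAMTS genes were spread in both directions, with a median absolute difference of 0.31 against 0.11 for all genes. It was 0.28 for MMP, 0.09 for ADAM, 0.52 for ADAMTSL and 0.20 for TIMP genes. Of the 3 stromelysins, Mmp3 (1.25-fold) and Mmp10 (1.17-fold) were higher on replicate 1 and Mmp11 (1.20-fold) on replicate 2. The collagenase Mmp13 was 1.58-fold and Mmp23 1.63-fold higher on replicate 2. Over olfactory receptor probe sets, 0 of 1035 differed 2-fold and 3 differed 1.5-fold, at low signal where the authors' method can compress differences.

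**Figure D5:**
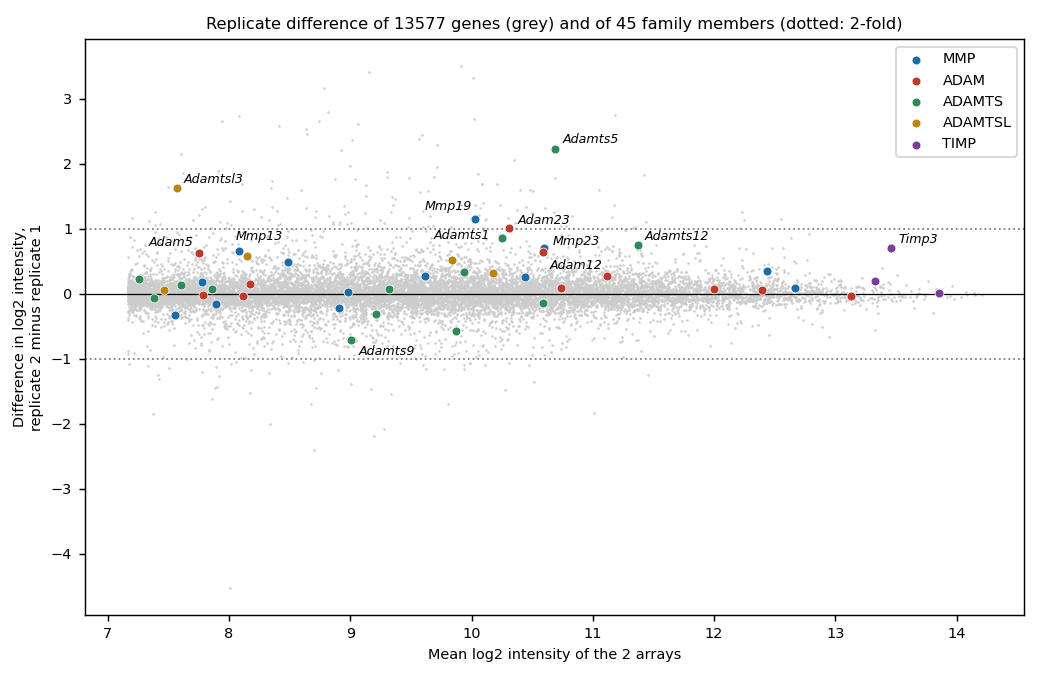
Difference in log2 intensity, replicate 2 minus replicate 1 (y axis), against the mean log2 intensity of the 2 arrays (x axis) for 13577 genes (grey) and 45 family members (coloured by family); dotted lines mark 2-fold and members at least 1.5-fold different are named. Of the 12 named members, only Adamts9 lies below 0.

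Other genes differed between the arrays as well. All 8 FRC markers, among them Col3a1 (10.05 and 11.30), were higher on replicate 2, against 51.2% of all genes. Their median difference was 0.22, against 0.0046 for all genes. Of 7 endothelial markers, 5 had a mean level above the limit. Emcn (7.64 and 8.40) and Tek (6.93 and 7.68) were higher on replicate 2, and Cdh5 (8.05 and 7.53), Pecam1 (7.22 and 7.13) and Kdr (7.31 and 7.27) were lower. The median difference of these 5 was -0.04, and the sum of the 7 intensities on the linear scale was 1091 and 1249. Prox1 and Lyve1 were below the limit on both arrays, and Pecam1 was above it on 1. The macrophage markers, which include genes of cells rich in Mmp9 and Mmp12, summed to 1347 and 1288. The part of these markers in the differences of the family members was not tested.

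Genes listed as acting on these enzymes passed the first limit almost throughout. This list and those that follow were chosen with earlier results of these data known, so their shares are descriptions only. Of 15 genes listed as MMP inhibitors, activators and receptors, 14 (93.3%) passed the first limit, against 67.3% of all genes. The stricter limit was passed by 12 (80%), against 49.9%. Both counts include Serpinh1 (12.19 and 12.41), a collagen chaperone gene that belongs to none of these classes. Lcn2, which binds MMP9, passed the first limit on 1 array. Reck, a membrane-anchored inhibitor of MMP2, MMP9 and MMP14, was at 9.80 and 10.51 (10.15 ± 0.51), 1.64-fold higher on replicate 2. Furin, which activates MMP14, MMP11 and many ADAMs, was at 11.65 and 11.57, and the related convertase Pcsk6 at 8.35 and 9.61, 2.39-fold higher on replicate 2. Basigin (Bsg), an inducer of MMPs, was at 12.94 and 12.98. Thrombospondin 2 (Thbs2), which binds MMP2 for uptake by LRP1, was at 11.60 and 12.86, 2.40-fold higher on replicate 2, and Lrp1 itself at 12.69 and 12.82. Over the 15 genes the median difference was 0.04.

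All 9 partners of ADAM10 and ADAM17 passed the limit and 6 (66.7%) the stricter one, against 67.3% and 49.9% of all genes. Of the tetraspanins that carry ADAM10 to the cell surface, Tspan5 was at 10.34 and 11.25, Tspan14 at 10.31 and 10.25 and Tspan17 at 10.81 and 11.16. The iRhoms that ADAM17 needs to mature were at 10.19 and 10.38 for Rhbdf1 and at 9.95 and 9.28 for Rhbdf2, and Frmd8, which stabilises them, was at 10.49 and 10.31. Tspan5 was 1.88-fold higher on replicate 2 and Rhbdf2 1.59-fold higher on replicate 1. Of 15 ligands and receptors known to be shed, 13 (86.7%) passed the limit, against 67.3% of all genes. The stricter limit was passed by 12 (80%), against 49.9%. Among the genes past both limits were the ADAM17 substrate Hbegf (12.19 and 11.76) and the epidermal growth factor family member Ereg (11.68 and 11.43). Tnf (6.52 and 6.57) was below the first limit. Of the 13 past the first limit, 10 were lower on replicate 2, and their median difference was -0.06. Over 13577 genes, 6629 were lower on replicate 2 and the median difference was 0.0046.

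The matrix substrates on the list all passed the first limit, 11 of 11, against 67.3% of all genes. The stricter limit was passed by 6 (54.5%), against 49.9%. Of the 11, 9 were higher on replicate 2 and 2 lower, with a median difference of 0.21 against 0.0046 for all genes. Bcan (7.18 and 7.37) and Fbn2 (7.33 and 7.30) lay only just above the first limit. Versican (Vcan), cut by ADAMTS1, ADAMTS5 and ADAMTS9, was at 11.82 and 12.19, whereas aggrecan (Acan) was at 7.26 and 7.27 and Comp at 7.60 and 8.04, below the stricter limit on both arrays. Of 14 genes listed as related metalloproteinases outside the families, 8 (57.1%) passed the limit and 4 (28.6%) the stricter one. These shares were below the 67.3% and 49.9% of all genes. The 14 and the 8 include Papln and Thsd4, ADAMTS-like genes whose products lack the proteinase domain and whose symbols the rule leaves out. Neither gene passed the stricter limit on both arrays. Bmp1, the procollagen C-proteinase, was at 12.41 and 12.65. In this list Pappa, a proteinase of IGF-binding proteins, was 4.65-fold higher on replicate 2 (7.82 and 10.03) and Tll1, a relative of Bmp1, was 1.75-fold higher on replicate 1 (12.37 and 11.56), both chosen after their values were seen. Adamdec1 (6.30 and 6.55), an ADAM relative of macrophages that the symbol rule leaves out, was below the limit.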

How the data were processed

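RNA of 2 samples of 1 group was measured on mouse arrays. The authors deposited 1 intensity per probe set and array, made with RMA (version not stated) according to the labels and, per the submitters' processing notes, with no other tool named. RMA consists of background subtraction, quantile normalisation and probe summary. It can compress differences at low signal, which was not tested here. The intensities were converted to log2 here. The set of arrays normalised together is not stated. The medians were 286.0 and 285.7. Precision is limited by the number of arrays, 2, and by not knowing whether each replicate had its own animal or culture. The probe annotation named a single gene for 21354 of the 24679 probe sets, and the rest were not used. All 83 members matched RefSeq (GRCm38.p6) by gene identifier with their symbol unchanged, and 52 had a promoter window. Where a gene had several probe sets, the mean of their log2 values was taken.

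No significance test was run. Python 3.11.15 with numpy 2.4.6, pandas 2.3.3 and statsmodels 0.14.6 (loess span 0.3) was used, and the counting was tested on simulated data. The members and gene lists were chosen with earlier results of these data known. Both array values are given for every member outside the testis ADAM list and for members at least 1.5-fold different. Testis genes are given by count and range, with examples. Genes that act on a named member, and some others, are named from the related lists. Alternatives covered the limit, the probe set rule, each array alone, normalisation and the filter on level.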

Additional observations from a re-analysis of the deposited data

How the results depend on the processing

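The calls depended mainly on the limit, which follows from the chosen reference probe sets and percentile. Of the 43 members above it, 31 remained under the tissue-restricted limit and 32 under the 99th percentile of olfactory receptors, where the ADAMTSL count was 2 under both instead of 4. At the 90th percentile 52 members passed. With vomeronasal receptors as the limit (6.13 and 6.21), 64 members passed and the ADAM count was 18 instead of 11. Without replicate 1 or without replicate 2, 43 to 45 members passed, Adamts13 and Adamtsl3 being added on replicate 2. Taking the highest probe set added Adamts3, and the lowest removed Adamts17. Quantile normalisation kept all 43 members, but RMA already holds this step, so this is a weak check. The 4 members at least 2-fold higher on replicate 2 became 11 at 1.5-fold, and the 0 higher on replicate 1 became 1. Quantile normalisation and the stricter filter on level each left 3, without Adam23 and Adamtsl3 respectively, and the other alternatives left 4. The median difference of 0.19 ranged from 0.09 with no filter to 0.27 with the stricter filter, and no member that differed 1.5-fold changed direction. No paired analysis was possible because there is 1 group.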
